A study of Mus musculus with 34 samples.

Results

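The genes of the neutrophil-attracting CXC chemokines Cxcl1, Cxcl2, Cxcl3 and Cxcl5 were followed in the lungs of 34 female mice exposed to ozone or to clean air in the 4 stages of the estrous cycle. They are 4 of the 84 genes of an RT-PCR array of inflammatory genes. The deposited tables carry well positions and no gene names. Cxcl1 was read from well C7, Cxcl2 from C10, Cxcl3 from C11 and Cxcl5 from C12. For Cxcl1, Cxcl2 and Cxcl5 the difference of group means in the deposited fold changes was equal, to its rounding, to a value tabulated in the study, as it was for 17 wells in all. Cxcl3 was placed in its well from the study's heatmap, between the Cxcl2 and Cxcl5 wells on a plate where the 17 named wells ran in alphabetical order. Because the tables list genes by their response to ozone, the comparison of ozone with clean air is not independent of how these wells were named.

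All mice were females of 8 weeks, of the strain C57BL/6J by the study's methods and C57BL/6 by the labels. They breathed 2 ppm ozone (O3) or filtered air (FA, the control) for 3 h, and lung was collected 4 h after exposure. The O3 mice comprised 5 in proestrus, 3 in estrus, 3 in metestrus and 3 in diestrus, and the FA mice 6, 6, 4 and 4 in the same order. Following the study, proestrus and estrus were grouped as the follicular phase and metestrus and diestrus as the luteal phase. RNA came from homogenates of whole lung, so that more cells making a chemokine and more RNA per cell cannot be told apart, and markers of lung cell types could not be read from unnamed wells. The study read the stage from vaginal smears and checked it by serum levels of estradiol, progesterone and luteinizing hormone. No hormone was given or removed, so a stage stands for all that differs between cycle days.

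These chemokines carry a Glu-Leu-Arg motif before the CXC cysteines and bind the receptor Cxcr2 on neutrophils, drawing them from blood into tissue. Cxcl1 (KC) and Cxcl2 (MIP-2) are made early by macrophages, epithelium and endothelium after injury or endotoxin, and Cxcl3 is their close relative. Cxcl5 (LIX) is in the lung mainly a product of epithelial cells. Transcription of the family is induced through NF-κB, the factor that Toll-like and interleukin-1 receptors activate.

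The 4 genes lie together on mouse chromosome 5. In build GRCm38.p6 Cxcl5 spans chr5:90759298-90761625, Cxcl3 chr5:90786101-90788093, Cxcl1 chr5:90891245-90893121 and Cxcl2 chr5:90903899-90905938. The stretch from the first to the last base covers 146641 bases and holds 7 protein-coding genes, the other 3 being Ppbp, Pf4 and Cxcl15, which are CXC chemokines too. The RefSeq promoter sequences of Cxcl1, Cxcl2 and Cxcl3, matched by symbol, are shown because the 3 genes hold the same NF-κB-type element. No promoter sequence of Cxcl5 was at hand, so Cxcl5 was not searched for that element. Each line is the plus strand from base -100 to base -21 relative to the annotated start, with the 10 bases GGGAATTTCC in capitals:
Cxcl3 (chr5:90786001-90786080): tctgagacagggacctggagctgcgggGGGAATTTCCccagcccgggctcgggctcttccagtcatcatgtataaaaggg
Cxcl1 (chr5:90891145-90891224): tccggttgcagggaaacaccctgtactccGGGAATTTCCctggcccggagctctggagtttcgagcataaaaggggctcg
Cxcl2 (chr5:90903799-90903878): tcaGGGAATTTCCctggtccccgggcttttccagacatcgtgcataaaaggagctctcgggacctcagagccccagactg
The element starts at -73 in Cxcl3, at -71 in Cxcl1 and at -97 in Cxcl2. In each gene it matches the NF-κB consensus on both strands, 2 overlapping matches shifted by 1 base. A match to that consensus on either strand is found in 4.51% of the 32851 mouse promoter windows, and the exact letters GGGAATTTCC, picked after these sequences had been read, in 0.0883% of them. The letters TATAAA were found in the Cxcl3 window, as in 13.6% of all promoters. These matches are letters in a window, and no binding was measured here.

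Expression is given as -ΔCt, the mean threshold cycle (Ct) of 4 reference wells minus the Ct of the gene. It is a log2 scale on which 1 unit is a doubling and a higher, less negative value means more transcript. A well that never crossed the threshold was given a Ct of 40. The efficiency of each assay is unknown, so levels are compared between mice and not between genes.

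Detection differed among the 4 assays. Cxcl2 had a Ct in every mouse, between 25.1 and 34.5. Cxcl1 had none in 2 mice, O3 diestrus replicate 2 and FA diestrus replicate 2. Cxcl3 had none in FA estrus replicate 2 and FA diestrus replicate 4. Cxcl5 lacked a Ct in 5 of the 20 FA mice and in 0 of the 14 O3 mice, a difference that did not pass Fisher's exact test (two-sided p = 0.0629, adjusted p = 1 over the 84 wells, against 1.19% of wells called). With a Ct of at most 35 counted as detected, Cxcl5 was detected in 11 of 14 O3 mice and in 4 of 20 FA mice (Fisher's exact p = 0.00131, adjusted p = 0.0549). Most FA values of Cxcl5 therefore come from the last cycles of the reaction, where a Ct is least precise.

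**Figure D1:**
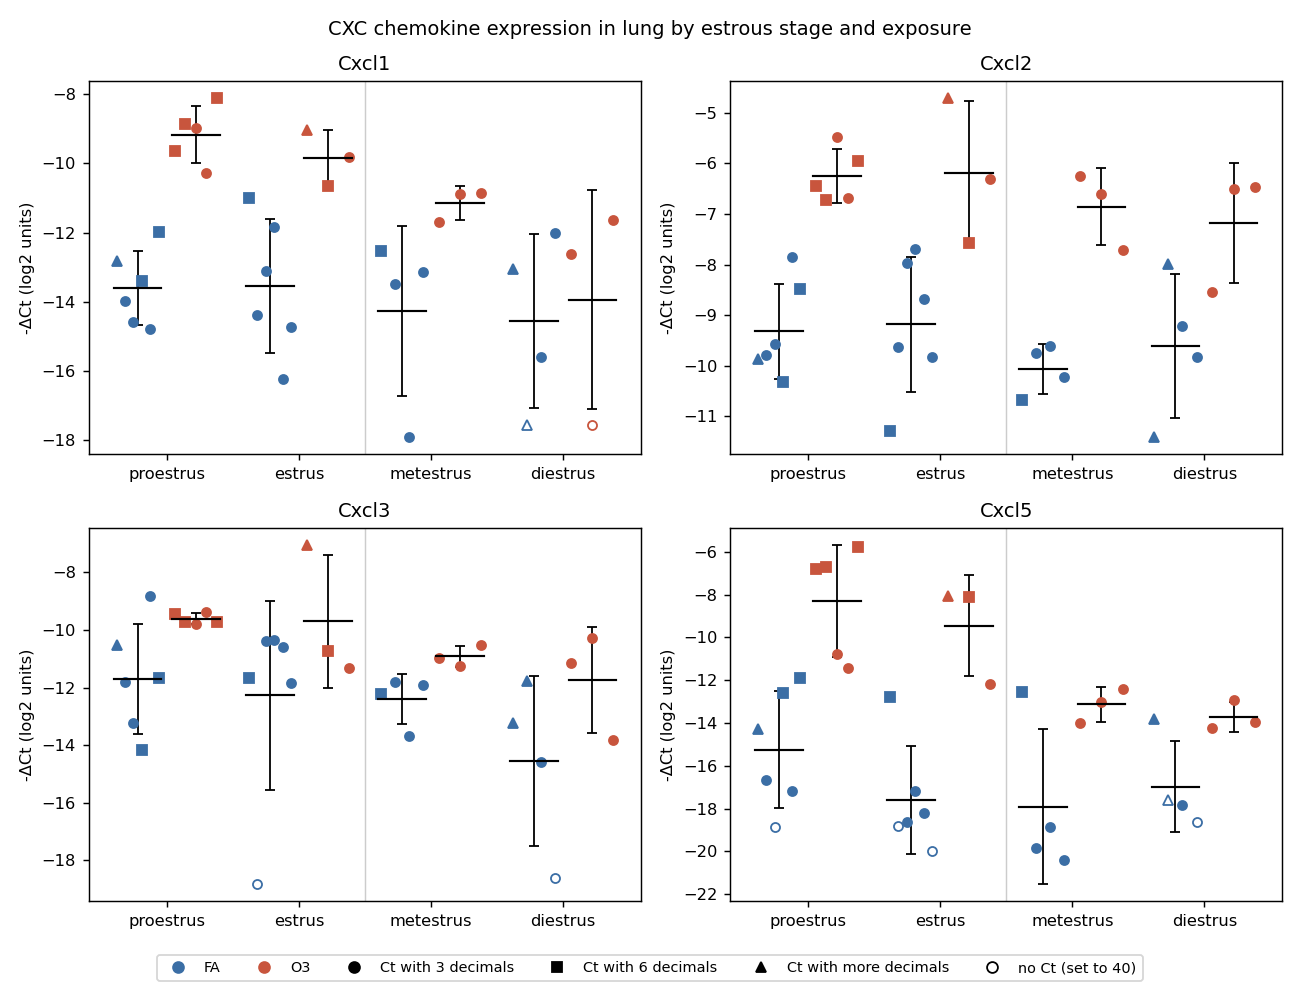
Expression of the 4 chemokines as -ΔCt (log2 units) in each of the 34 mice by estrous stage, FA in blue and O3 in red, with the mean (bar) and SD (whiskers) of each group; the marker shows the number of decimals of the Ct values of the mouse and open markers are wells with no Ct. All 8 follicular O3 mice lie above all 12 follicular FA mice for Cxcl1 and Cxcl2, as for 8.33% of the wells. O3 values of Cxcl1 and Cxcl5 are lower in metestrus and diestrus than in proestrus and estrus.

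In the follicular phase Cxcl1, Cxcl2 and Cxcl5 were higher after O3 than after FA, and in the luteal phase Cxcl2 and Cxcl5 were. The question is whether ozone changes these transcripts in either phase of the cycle. The comparisons below use limma's moderated test on group means, with Benjamini-Hochberg adjustment over all 84 wells and an FDR threshold of 0.05. At that threshold 22.6% of the wells were called in the follicular phase and 21.4% in the luteal phase, 19.0% and 11.9% of all wells being higher after O3.

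For Cxcl1, the 12 follicular FA mice ran from -16.22 to -10.99 (median -13.69) and the 8 follicular O3 mice from -10.66 to -8.11 (median -9.34). Every O3 mouse was above every FA mouse, which held for 8.33% of the wells. The difference was 4.15 log2 units (SE 0.806, adjusted p = 0.000106), an O3 level 17.8 times that of FA with a 95% interval of 5.69 to 55.4. In the luteal phase the 8 FA mice ran from -17.93 to -12.01 (median -13.32) and the 6 O3 mice from -17.57 to -10.85 (median -11.67). Of the O3 mice 4 lay above all FA mice, and O3 diestrus replicates 1 and 2, the second with no Cxcl1 Ct, did not. The difference of 1.88 (SE 0.954, 95% interval -0.07 to 3.82) did not pass (adjusted p = 0.143). Without O3 diestrus replicate 2 it was 2.88 with an adjusted p of 0.0187.

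Cxcl2 had the most even response of the 4. Follicular FA mice ran from -11.29 to -7.70 (median -9.59) and follicular O3 mice from -7.57 to -4.70 (median -6.37). Luteal FA mice ran from -11.42 to -7.99 and luteal O3 mice from -8.55 to -6.24 (median -6.56), with 5 of the 6 O3 mice above all FA mice. The O3 mice did not overlap FA in the follicular phase, as for 8.33% of the wells. In the luteal phase they overlapped by a single O3 mouse, diestrus replicate 1, and 2.38% of the wells had all O3 mice above all FA mice. The difference was 3.02 (SE 0.452, adjusted p = 2.46e-06) in the follicular phase and 2.83 (SE 0.535, adjusted p = 0.000175) in the luteal phase, which are 8.11 and 7.10 times the FA level. The call in each phase remained when any single mouse was left out.

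Cxcl3 passed in neither phase. Follicular FA mice ran from -18.83 to -8.84 (median -11.66) and O3 mice from -11.30 to -7.05 (median -9.72). Luteal FA mice ran from -18.62 to -11.78 (median -12.73) and O3 mice from -13.80 to -10.28 (median -11.05). In each phase the O3 median was higher and the ranges overlapped, the lowest FA value being a well with no Ct. The difference was 2.35 in the follicular phase (SE 0.918, 95% interval 0.48 to 4.22, adjusted p = 0.0564) and 2.15 in the luteal phase (SE 1.09, adjusted p = 0.143). The follicular value lies at the threshold: with wells without a Ct left missing it was 1.72 with an adjusted p of 0.0231, and it passed when FA proestrus replicate 1, FA proestrus replicate 5, FA estrus replicate 3, FA diestrus replicate 4 or O3 estrus replicate 3 was left out (adjusted p from 0.0301 to 0.0492).

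Cxcl5 had the largest of the 4 differences in both phases with a Ct of 40 for wells without one. Follicular FA mice ran from -19.96 to -11.88 (median -17.16) and O3 mice from -12.18 to -5.78 (median -8.09), with 7 of the 8 O3 mice above all FA mice. Luteal FA mice ran from -20.41 to -12.53 (median -18.23) and O3 mice from -14.25 to -12.39 (median -13.49). The luteal O3 values were tightly grouped and overlapped the 2 highest FA mice. The difference was 7.69 (SE 1.10, adjusted p = 1.21e-06) in the follicular phase and 4.01 (SE 1.30, adjusted p = 0.0287) in the luteal phase. Its size depends on the value given to wells with no Ct: with Ct 36 it was 6.69 and 3.01 in the follicular and luteal phase, and with all Ct values above 35 set to 35 it was 5.22 and 0.92, the latter below the 2.83 of Cxcl2 under the same limit. The follicular call held in both (adjusted p = 2.14e-06 and 6.49e-08) and the luteal call held in neither (0.0659 and 0.407). The luteal call was also lost without O3 diestrus replicate 2, FA metestrus replicate 2 or FA metestrus replicate 4, with an adjusted p of up to 0.0588.

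The median difference of the 4 genes was 3.59 in the follicular phase against 0.29 over all 84 wells, and 2.49 against -0.12 in the luteal phase.

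**Figure D2:**
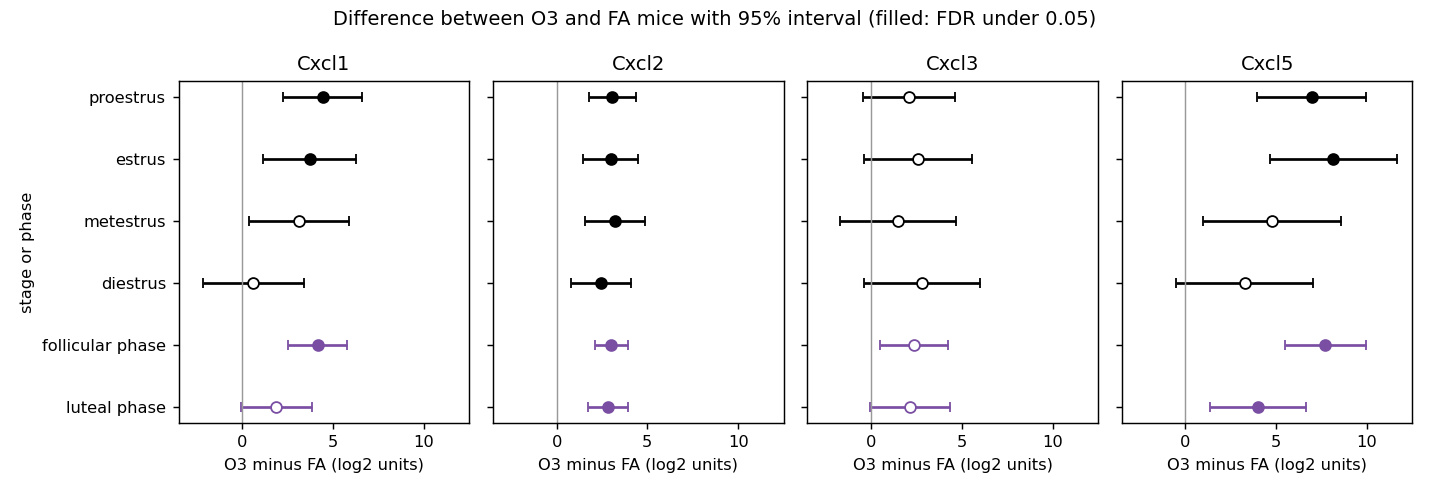
Difference between O3 and FA mice (O3 minus FA, log2 units) with its 95% interval for each chemokine, by stage (black) and by phase (purple); filled points have an FDR under 0.05. Cxcl2 stays between 2.44 and 3.22 in all 4 stages, Cxcl1 runs from 0.62 in diestrus to 4.43 in proestrus and Cxcl5 from 3.25 in diestrus to 8.14 in estrus.

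Among the O3 mice, Cxcl1 and Cxcl5 were higher in the follicular than in the luteal phase, and all 8 follicular mice lay above all 6 luteal mice for both, as for 3.57% of the wells. The difference was 3.12 for Cxcl1 (SE 0.954, adjusted p = 0.0364) and 4.69 for Cxcl5 (SE 1.30, adjusted p = 0.0282), against 8.33% of the wells called. For Cxcl2 it was 0.78 (95% interval -0.30 to 1.87, adjusted p = 0.327) and for Cxcl3 1.69 (-0.53 to 3.90, adjusted p = 0.304). The median over the 4 genes was 2.40, and over all wells 0.58. With reference well H2 alone or H3 alone 0 of the 4 genes were called. All 6 luteal O3 mice had Ct values with 3 decimals, against 3 of the 8 follicular O3 mice, and with the number of decimals as a term both calls were lost (Cxcl5 1.52, SE 0.601, adjusted p = 0.205, and Cxcl1 2.43, SE 1.04, adjusted p = 0.246). The Cxcl1 call was lost when O3 estrus replicate 1, O3 proestrus replicate 1, 2, 3 or 5, or any of the 3 O3 diestrus mice was left out (adjusted p up to 0.164), and the Cxcl5 call was lost without O3 estrus replicate 1, O3 proestrus replicate 1, 2 or 5, or any O3 diestrus mouse (adjusted p up to 0.0808).

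Among the FA mice no member differed between phases. Follicular minus luteal was 0.85 for Cxcl1, 0.59 for Cxcl2, 1.49 for Cxcl3 and 1.02 for Cxcl5, each with an adjusted p of 0.982, and 0 of the 84 wells passed limma's test (0% called, 5 wells at an unadjusted p under 0.05, and 0 by the exact permutation test).

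The difference between the 2 phases in the response to O3 was tested as an interaction. It was 2.27 for Cxcl1 (95% interval -0.27 to 4.82, adjusted p = 0.298), 0.19 for Cxcl2 (-1.23 to 1.62, adjusted p = 0.914), 0.20 for Cxcl3 (-2.70 to 3.09, adjusted p = 0.972) and 3.68 for Cxcl5 (0.22 to 7.14, adjusted p = 0.207). None of the 84 wells passed in limma (0% called, 19 at an unadjusted p under 0.05), so a response to O3 that differs by phase was not established for any of the 4. With Ct values limited to 35, Cxcl1 (2.40, adjusted p = 0.0491) and Cxcl5 (4.30, adjusted p = 0.0184) passed. That limit acts unevenly on the groups. Cxcl5 had a Ct of at most 35 in 8 of 8 follicular and 3 of 6 luteal O3 mice, and in 2 of 12 follicular and 2 of 8 luteal FA mice. The size of the Cxcl5 interaction therefore depends on the limit.

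By stage, in the 8-group model, the share of wells called for O3 against FA was 14.3% in proestrus, 14.3% in estrus, 7.14% in metestrus and 11.9% in diestrus (11.9%, 14.3%, 7.14% and 5.95% for wells higher after O3). Cxcl2 passed in all 4 stages. Its differences were 3.06 in proestrus (SE 0.634, adjusted p = 0.000905), 2.99 in estrus (SE 0.741, adjusted p = 0.00350), 3.22 in metestrus (SE 0.80, adjusted p = 0.0110) and 2.44 in diestrus (SE 0.80, adjusted p = 0.0414). The O3 values of Cxcl2 were -6.44, -6.72, -5.47, -6.68 and -5.94 in proestrus and -4.70, -7.57 and -6.30 in estrus. In metestrus they were -6.24, -6.61 and -7.71, against -10.69, -9.76, -9.61 and -10.23 in FA. In diestrus they were -8.55, -6.51 and -6.47, against -11.42, -7.99, -9.22 and -9.83. O3 and FA were separate in each stage but diestrus, where O3 replicate 1 fell below FA replicate 2. Such separation held for 10.7% of the wells in proestrus, 16.7% in estrus and 17.9% in metestrus. The diestrus call was lost without FA diestrus replicate 1 or 4 or O3 diestrus replicate 2 or 3 (adjusted p up to 0.241), the metestrus call without O3 metestrus replicate 1 or 2 (0.0770 and 0.0615), and the estrus call without O3 estrus replicate 1 (0.101).

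Cxcl1 passed in proestrus (4.43, SE 1.07, adjusted p = 0.00262) and estrus (3.71, SE 1.25, adjusted p = 0.0419). The O3 values were -9.65, -8.86, -8.96, -10.27 and -8.11 in proestrus and -9.04, -10.66 and -9.82 in estrus, all above the highest FA values of -11.99 and -10.99. In metestrus the O3 values were -11.70, -10.88 and -10.85 and the FA values -12.54, -13.49, -17.93 and -13.15. The metestrus groups did not overlap, as in 17.9% of the wells, and the difference of 3.13 (SE 1.35) had an adjusted p of 0.183. In diestrus the O3 values were -12.61, -17.57 and -11.64 and the FA values -13.05, -17.58, -15.60 and -12.01, with the second value of each a well with no Ct. These groups overlapped over nearly their whole range, and the difference was 0.62 (SE 1.35, 95% interval -2.14 to 3.38, adjusted p = 0.851). The estrus call was lost without O3 estrus replicate 1 or 3 or FA estrus replicate 2, 3, 5 or 6 (adjusted p up to 0.191).

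Cxcl5 passed in proestrus (6.95, SE 1.46, adjusted p = 0.000905) and estrus (8.14, SE 1.71, adjusted p = 0.00117). The O3 values were -6.79, -6.69, -10.76, -11.45 and -5.78 in proestrus and -8.09, -8.10 and -12.18 in estrus. The 6 FA mice had medians of -15.47 and -18.43 in the same stages, and O3 and FA were separate in both, as were Cxcl1 and Cxcl2 (10.7% of the wells in proestrus and 16.7% in estrus). In metestrus the O3 values were -13.98, -13.02 and -12.39 and the FA values -12.53, -19.82, -18.84 and -20.41. In diestrus the O3 values were -14.25, -12.92 and -13.97 and the FA values -13.83, -17.58, -17.83 and -18.62, the second and the fourth FA well having no Ct. A single high FA mouse, metestrus replicate 1 and diestrus replicate 1, overlapped the O3 mice in each stage. The differences were 4.77 in metestrus (SE 1.85, adjusted p = 0.142) and 3.25 in diestrus (SE 1.85, adjusted p = 0.257). Without FA metestrus replicate 1 the metestrus difference was 6.56 with an adjusted p of 0.0249.

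Cxcl3 passed in no stage, with differences between 1.49 in metestrus and 2.81 in diestrus (adjusted p from 0.257 to 0.688). The O3 values were -9.43, -9.72, -9.80, -9.38 and -9.71 in proestrus, an SD of 0.189, while the 6 FA mice ran from -14.17 to -8.84. They were -7.05, -10.74 and -11.30 in estrus, -10.96, -11.26 and -10.53 in metestrus, and -11.13, -10.28 and -13.80 in diestrus. In metestrus all O3 values lay above the FA values of -12.24, -11.79, -13.68 and -11.91, as in 17.9% of the wells.

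The order of stage means in the O3 mice was the same for Cxcl1, Cxcl3 and Cxcl5: proestrus, estrus, metestrus, diestrus from high to low. For Cxcl2 estrus came before proestrus, by 0.06. No neighbours in these orders differed past the threshold, and none of the 4 genes passed the test of any stage difference among O3 mice (for Cxcl1 moderated F = 4.92 and adjusted p = 0.149, for Cxcl5 F = 4.49 and adjusted p = 0.180, with 2.38% of the wells called). Of the 6 pairs of stages, proestrus against diestrus gave the only member past the threshold, Cxcl1 at 4.77 (SE 1.29, adjusted p = 0.0192, 4.76% of the wells called), and Cxcl5 was at 5.42 (SE 1.76, adjusted p = 0.0733). The Cxcl1 difference rests on O3 diestrus replicate 2, the mouse with no Cxcl1 Ct: without it the value was 2.96 (SE 1.32, adjusted p = 0.283). The call was also lost without O3 proestrus replicate 5 (4.51, adjusted p = 0.0687), with wells without a Ct left missing (2.96, adjusted p = 0.117) and with the number of decimals as a term (3.97, adjusted p = 0.108). With Ct values limited to 35 it held (3.11, adjusted p = 0.00442), and Cxcl5 passed too (5.24, adjusted p = 0.00223), as it did with missing wells left out (5.42, adjusted p = 0.0394) and with the single omissions of FA estrus replicate 1, FA metestrus replicate 1 and O3 proestrus replicate 3 or 4. These settings were chosen after seeing the data. Among FA mice the stage means of Cxcl1 lay between -14.56 and -13.55 and those of Cxcl2 between -10.07 and -9.18, with SDs within stages of 1.07 to 2.52 and of 0.49 to 1.43. FA stage means of Cxcl3 ran from -14.55 to -11.71 and of Cxcl5 from -17.90 to -15.24, and no stage test passed (0% called, 3 wells at an unadjusted p under 0.05).

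A feature of the deposited Ct values moved with Cxcl5. The Ct values of 22 mice had 3 decimals, those of 8 mice had 6 and those of 4 mice had more, and what the difference stands for was not given in the sources used here. Among FA mice the 4 with 6 decimals had Cxcl5 between -12.77 and -11.88 and the 13 with 3 decimals between -20.41 and -16.64. Among O3 mice the 4 with 6 decimals lay between -8.10 and -5.78 and the 9 with 3 decimals between -14.25 and -10.76. The ranges did not overlap in either exposure. In O3 the 4 mice with 6 decimals were all follicular and 6 of the 9 with 3 decimals were luteal, so the O3 differences by decimals also span phases. The mean difference was 6.09 in FA (exact permutation p = 0.000420) and 5.93 in O3 (exact permutation p = 0.00140), the largest of 84 wells in FA and the second largest in O3, where the median well differed by 0.15 and 0.56. For Cxcl1 the same differences were 2.07 (exact permutation p = 0.0366) and 2.27 (p = 0.103), for Cxcl2 -0.99 and 0.06, and for Cxcl3 0.37 and 1.04. The mean reference Ct of the 6-decimal and 3-decimal mice was 22.2 and 20.2 in FA and 20.8 and 20.7 in O3.

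**Figure D3:**
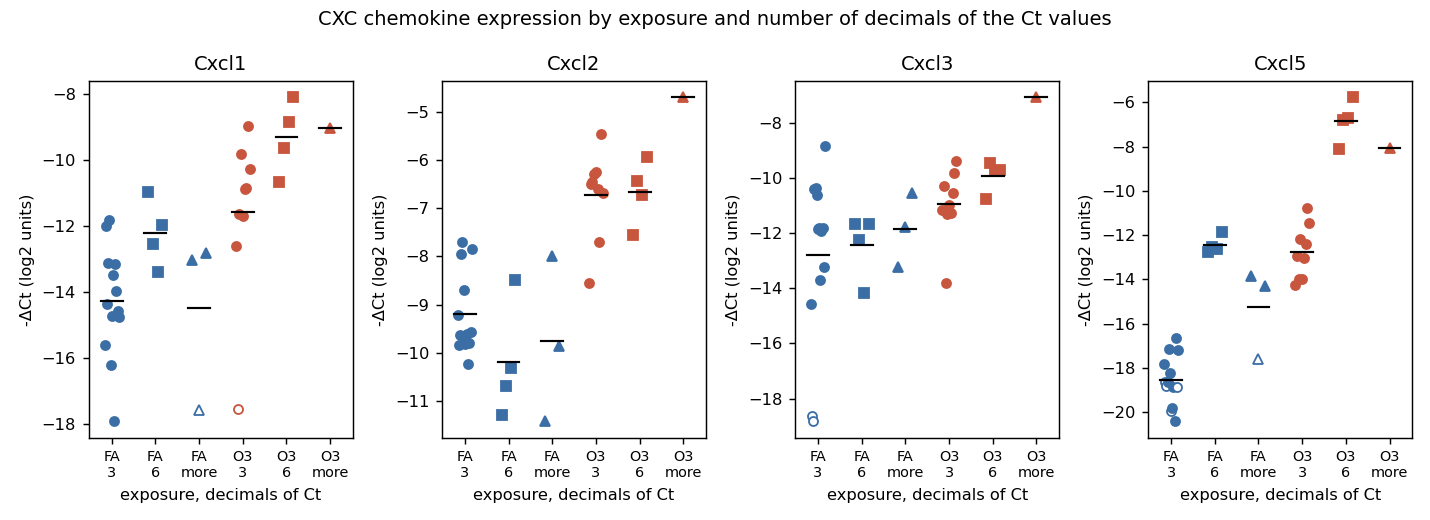
Expression of the 4 chemokines as -ΔCt (log2 units) by exposure and by the number of decimals of the Ct values of each mouse, with the mean of each set as a bar and open markers for wells with no Ct. For Cxcl5 the mice with 3 and with 6 decimals do not overlap in FA or in O3, and within each number of decimals O3 lies above FA.

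Within mice of one number of decimals, the O3 difference of Cxcl5 was almost the same: 5.77 with 3 decimals (9 O3 and 13 FA mice, exact permutation p = 2.01e-06, adjusted p = 1.61e-05 over 8 tests) and 5.61 with 6 decimals (4 and 4 mice, exact permutation p = 0.0286, the smallest such groups can give), with no overlap in either, as for 4.76% of the wells with 3 decimals and 20.2% with 6. Cxcl1 differed by 2.71 and 2.91 (exact permutation p = 0.00680 and 0.0286), Cxcl2 by 2.48 and 3.53 (p = 2.01e-05 and 0.0286) and Cxcl3 by 1.86 and 2.53 (p = 0.101 and 0.0286). Among the 6-decimal mice, O3 and FA were separate for all 4 genes, against the same 20.2% of the wells. The sets differ in phase. All 4 O3 mice with 6 decimals were follicular, and 6 of the 9 O3 mice with 3 decimals were luteal. The FA mice were 8 follicular and 5 luteal with 3 decimals, and 3 and 1 with 6. With the number of decimals as a term in the model the O3 difference of Cxcl5 was 6.18 in the follicular phase (SE 0.476, adjusted p = 6.04e-12) and 5.58 in the luteal phase (SE 0.569, adjusted p = 5.74e-09), and it passed in all 4 stages, at 6.10 in metestrus (adjusted p = 1.56e-06) and 4.93 in diestrus (adjusted p = 0.000202).

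Of the 8 follicular O3 mice 3 had 3 decimals, 4 had 6 and 1 had more. With the term in the model, under which the phase calls among O3 mice were lost, the interaction of Cxcl5 was 0.59 (adjusted p = 0.772). Within the 9 O3 mice with 3 decimals, the 3 follicular mice had Cxcl5 between -12.18 and -10.76 and the 6 luteal mice between -14.25 and -12.39. They did not overlap, as for 4.76% of the wells, and the difference was 1.96 (exact permutation p = 0.0119, the smallest of 84 splits). For Cxcl1 it was 2.86 (exact permutation p = 0.0714), for Cxcl2 0.86 (p = 0.190) and for Cxcl3 1.17 (p = 0.238). None of these 4 passed when limma's test was run on the 3-decimal mice alone (adjusted p = 0.420 for Cxcl1 and 0.419 for Cxcl5).

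A reference well also stood apart in O3 estrus replicate 1. The Ct of well H2 was 4.0 above the mean of the other 3 reference wells in that mouse, 1.21 above in FA diestrus replicate 2 and between -1.78 and 0.58 in the other 32. That O3 mouse had the highest -ΔCt of Cxcl2 and Cxcl3 of all 34 mice, but a high H2 Ct raises the -ΔCt of every well in a mouse. Its Cxcl3 Ct (27.98) was the lowest of all. Its Cxcl2 Ct (25.63) was not, being above the 25.13 of O3 proestrus replicate 3. Without H2 in the reference the estrus difference of Cxcl1 was 3.38 and no longer passed (adjusted p = 0.0805), and no other count of members called changed.

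Whether the 4 genes responded equally depended on the value given to late wells. In each mouse the difference between 2 genes is free of the reference wells, and its change with O3 was tested over 6 pairs in 2 phases. It is not free of the assay efficiencies, which are unknown, so the changes compared below are changes in Ct. In the follicular phase Cxcl5 rose more than Cxcl1 by 3.54 (-3.54 for Cxcl1 minus Cxcl5, exact permutation p = 0.00257, adjusted p = 0.0162 over the 12 tests), more than Cxcl2 by 4.67 (adjusted p = 0.0208 by the exact permutation test) and more than Cxcl3 by 5.34 (adjusted p = 0.0162). The other 9 comparisons did not pass (adjusted p from 0.331 to 0.892), among them Cxcl1 against Cxcl2 in the follicular phase at 1.13. With Ct 36 for wells without a Ct, or with Ct values limited to 35, 0 of 12 passed, the lowest adjusted p being 0.0558 and 0.0826. Within 3-decimal mice Cxcl5 rose more than Cxcl2 in the follicular phase, by 4.0, and in the luteal phase, by 2.97 (adjusted p = 0.0364 and 0.0260, exact permutation test), while in the follicular phase Cxcl1 minus Cxcl5 (-2.20, adjusted p = 0.116) and Cxcl3 minus Cxcl5 (-4.90, adjusted p = 0.0970) did not pass.

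Across mice of one exposure the 4 genes varied together only in part. Over the 20 FA mice the 6 pairs had a median Pearson r of 0.077, against 0.130 over all 3486 pairs of wells, and over the 14 O3 mice 0.404, against 0.282. With the mean of the array wells as the reference, the medians were 0.058 in FA and 0.181 in O3, against -0.018 and 0.005 over all pairs of wells. None of the 12 relations passed by Pearson's r after adjustment (lowest adjusted p = 0.0697, permutation test of 100000 resamples). By rank, 2 passed, both in O3 mice: Cxcl1 and Cxcl5 (rho = 0.90, permutation adjusted p = 0.0006) and Cxcl3 and Cxcl5 (rho = 0.72, permutation adjusted p = 0.0273). Both had r = 0.61 over the 14 mice, which was 0.77 and 0.66 without the 2 mice farthest from the median of the first gene, and these values span mice of both phases and of different numbers of decimals. Cxcl2 and Cxcl3 had r = 0.35 and rho = 0.48 in FA (permutation p = 0.127 and 0.0343) and r = 0.47 and rho = 0.28 in O3 (permutation p = 0.0903 and 0.331), the latter falling to r = 0.09 without O3 diestrus replicate 1 and O3 estrus replicate 1. Cxcl1 and Cxcl2 had r = -0.32 in FA and 0.34 in O3. When the mean of the array wells was the reference, Cxcl1 and Cxcl5 still passed by rank in O3 mice (rho = 0.80, permutation adjusted p = 0.0112). Cxcl3 and Cxcl5 did not (rho = 0.68, permutation adjusted p = 0.0537).

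For Cxcl1 and for Cxcl5 every follicular O3 mouse lay above every luteal O3 mouse, though the phases were close. The lowest follicular and highest luteal O3 values were -10.66 and -10.85 for Cxcl1, and -12.18 and -12.39 for Cxcl5. The relation of Cxcl1 and Cxcl5 was therefore also read within phases. It was r = 0.48 and rho = 0.69 in the 8 follicular O3 mice (exact permutation p = 0.221 and 0.0694) and r = -0.10 and rho = 0.43 in the 6 luteal O3 mice (exact permutation p = 0.983 and 0.419). In FA it was r = 0.67 and rho = 0.64 in the 12 follicular mice (permutation p = 0.0184 and 0.0299) and r = 0.25 in the 8 luteal mice (exact permutation p = 0.583). Cxcl3 and Cxcl5 had rho = 0.33 in the follicular and 0.49 in the luteal O3 mice (exact permutation p = 0.428 and 0.356). Over the 24 relations within phases, the lowest adjusted p was 0.441 for r and 0.294 for rho. Because Cxcl5 is also split by the number of decimals, its pairs were read in the 3-decimal mice too. There Cxcl1 and Cxcl5 had r = 0.00 in 13 FA mice and r = 0.45 and rho = 0.82 in 9 O3 mice (exact permutation p = 0.230 and 0.0108, adjusted p = 0.551 and 0.129). Cxcl3 and Cxcl5 had r = 0.66 and rho = 0.55 in the O3 mice (exact permutation p = 0.0439 and 0.133, adjusted p = 0.194 and 0.398).

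**Figure D4:**
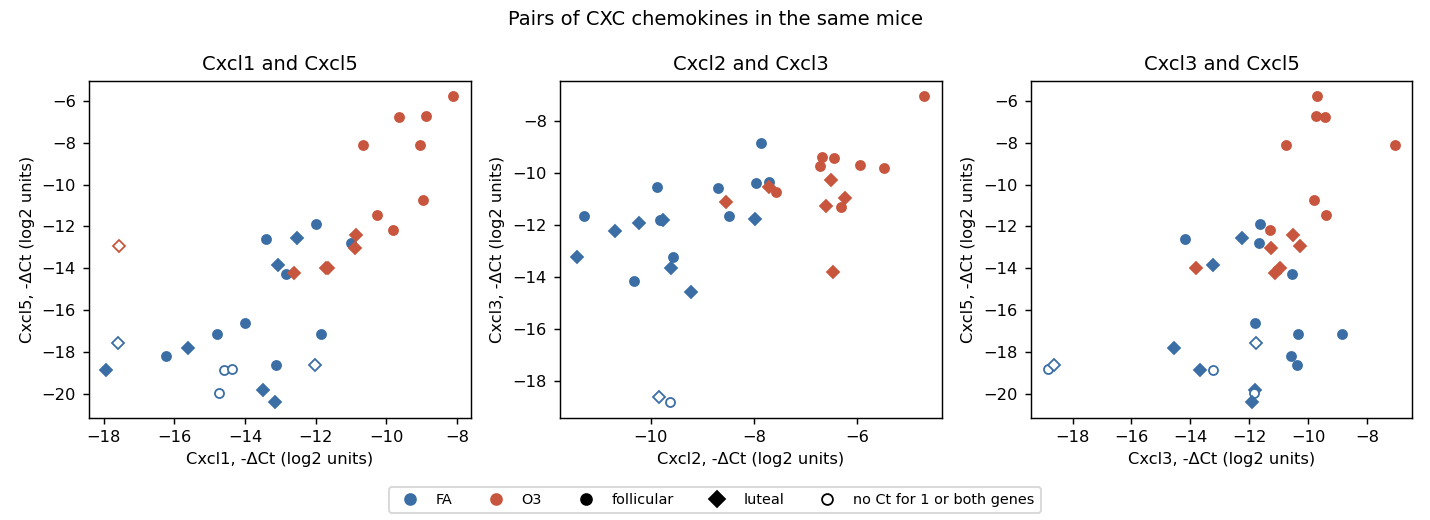
Pairs of chemokines in the same mouse as -ΔCt (log2 units), Cxcl1 and Cxcl5, Cxcl2 and Cxcl3, and Cxcl3 and Cxcl5, with FA in blue and O3 in red, circles for follicular and diamonds for luteal mice, and open markers where a gene had no Ct. In O3 mice the follicular and luteal points of Cxcl1 and Cxcl5 fall into separate ranges, with O3 diestrus replicate 2 apart at a Cxcl1 of -17.57.

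The array wells most like each gene were sought by the Pearson r of deviations from the 4 exposure and phase means over the 34 mice, and no member was among the 3 most like another. For Cxcl5 they were G4 (r = 0.83), B2 (0.75) and F5 (0.75), none of which has a name here. Well G4 had the other large difference by number of decimals, 5.97 in FA and 7.02 in O3. For Cxcl2 they were G3 (r = 0.63), Ccl7 (0.63) and B11 (0.52), and for Cxcl3 D8 (0.55), Ccl11 (0.50) and A5 (0.47). Ccl7 and Ccl11 are CC chemokines that attract monocytes and eosinophils. For Cxcl1 they were G2 (0.53), G7 (0.53) and D2 (0.50). Among the members themselves Cxcl1 and Cxcl5 had r = 0.35, Cxcl2 and Cxcl3 0.29, and Cxcl2 and Cxcl5 -0.29.

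Other named genes of the same inflammatory network give the setting. Of 6 further chemokines, 6 were higher after O3 in the follicular phase, against 19.0% of all wells, from Ccl17 (1.21, adjusted p = 0.00153) to Ccl20 (7.78, adjusted p = 1.03e-06), a ligand of Ccr6 made by epithelium, and the others were Ccl2, Ccl7, Ccl11 and Cxcl10. In the luteal phase Ccl17 (1.60, adjusted p = 0.000821) and Ccl20 (6.95, adjusted p = 0.000164) were higher, against 11.9% of all wells, and the other 4 did not pass. Of 5 upstream sensors and mediators, 4 were higher in the follicular phase, namely Il6 (7.44, adjusted p = 1.49e-07), Ptgs2 (cyclooxygenase 2), Cd14 (the endotoxin co-receptor) and Il1r1. In the luteal phase Il6 (6.81, adjusted p = 2.79e-05), Ptgs2, Il1r1 and Myd88, the adaptor of Toll-like and interleukin-1 receptors, were higher. None of the 11 passed between phases among O3 mice, where 8.33% of all wells did, or in the interaction, where 0% did. These genes have names because the study tabulated them as changed, so their counts are not independent evidence of a direction.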

How the data were processed

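Whole lung RNA (400 ng per reaction) of 34 mice was run on an 84-gene PCR array. The authors deposited threshold cycles (Ct; cycles, not normalized) and linear fold changes, ratios that the authors made as 2 to the power of -ΔΔCt against 1 control mouse. Threshold and baseline settings are not given in the sources used here. All 3026 fold changes were recovered from the Ct values with wells H1, H2, H3 and H5 as reference, FA diestrus replicate 1 as calibrator and Ct 36 for wells without a Ct, and they were used to name wells and as an alternative.

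Here -ΔCt used the same wells and Ct 40 for the 8.3% of array values without a Ct (highest measured Ct 39.95). Group means were fitted with limma 3.58.1 (R 4.3.3), as 4 groups of exposure and phase and as 8 groups of exposure and stage, with Benjamini-Hochberg adjustment over 84 wells (FDR 0.05). Permutation, Fisher and correlation tests, two-sided, were run in Python 3.11.15 (scipy 1.17.1, numpy 2.4.6, pandas 2.3.3; plots with matplotlib 3.10.9). Exact tests enumerated all splits; correlations over 10 or more mice used 100000 resamples. In 20 rounds of simulated data for the follicular comparison of 84 wells, 340 of 340 changed wells were recovered and 4.22% of calls were false. The simulated shifts were large against the spread within groups, and the noise was normal and independent in each well. Wells without a Ct, reference error shared by wells and a split by decimals were not simulated. The simulation therefore checks that the fit runs and not the calls made here. A Ct gives no count of molecules, so no counting interval is given, and each mouse was 1 sample.

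The text always names the 4 members and the 11 genes of the 2 lists, placed by exact table values, and for each member the 3 most like wells. The members and lists were chosen with earlier results of these data known. The alternatives were other reference wells, other values for wells without a Ct, a detection filter, separate fits, limma's trend and robust options, linear fold changes, the number of Ct decimals, mice 31 to 34 left out, the replicate number as a block, permutation tests, and each mouse left out in turn. A reference without H2 was chosen after seeing the data.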

Additional observations from a re-analysis of the deposited data

Results flagged for a closer look

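Of 32 groups of 4 to 10 mice that were screened for a mouse far from the rest, 5 were flagged by Dixon's criterion, which marks about 1 in 20 groups by chance. In 3 of them the mouse was a well without a Ct, given a Ct of 40. Cxcl1 was -17.57 in O3 diestrus replicate 2, against -12.61 to -10.85 in the other 5 luteal O3 mice. Cxcl3 was -18.83 in FA estrus replicate 2 among the 6 FA estrus mice, and -18.62 in FA diestrus replicate 4 among the 8 luteal FA mice. In the other two the Ct was measured. Cxcl3 was -7.05 in O3 estrus replicate 1, the highest of the 8 follicular O3 mice and the mouse in which reference well H2 stood 4.0 cycles above the other reference wells, with a Cxcl3 Ct of 27.98, the lowest of all 34. Cxcl3 was -13.80 in O3 diestrus replicate 3, the lowest of the 6 luteal O3 mice, at a Ct of 35.02.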

How the results depend on the processing

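Of the 4 genes, 3 were called for O3 against FA in the follicular phase and 3 in proestrus, 2 in the luteal phase, 2 for phase among O3 mice, 3 in estrus, 1 in metestrus and 1 in diestrus, and 0 for FA phases, interactions and stage. The follicular and proestrus counts stayed within 1.5 times of this in all alternatives. Phase among O3 mice fell to 0 with H2 alone, H3 alone, the decimals term or 3-decimal mice, and to 1 with the array mean, missing wells or without mice 31 to 34. The luteal count was 1 with H3 alone or permutation tests, 0 on linear fold changes and 3 with wells without a Ct left missing. Estrus was 1 with a separate fit, 3-decimal mice or without mice 31 to 34, and 0 by permutation. Metestrus was 0 with H2 alone, linear values or permutation, and 2 with the decimals term or 3-decimal mice. Diestrus was 0 with H2 alone, a separate fit, linear values, permutation or without mice 31 to 34, and 2 with the decimals term. With 3 against 4 mice an exact permutation p cannot be below 0.0286. A Ct limit of 35 gave 2 interaction calls, 2 stage calls among O3 mice, 3 correlations of 12 (1 in FA, 2 in O3) and 0 unequal changes, the last also 0 with Ct 36. Linear fold changes gave 1 interaction and 1 stage call. Leaving out 1 mouse gave 0 to 2 calls for phase among O3 mice, 1 to 2 luteal, 3 to 4 follicular, 1 to 3 in estrus, 0 to 2 in metestrus and 0 to 1 in diestrus. The values that changed sign had not passed. The interaction of Cxcl2 was -0.080 with H3 alone, -0.13 with the array mean and -0.13 without mice 31 to 34, and -0.12 to 0.42 without 1 mouse. That of Cxcl3 was -0.073, -0.12 and -0.37 in the same settings, -0.38 with the decimals term, -0.97 in 3-decimal mice and -0.43 to 0.93 without 1 mouse. Cxcl1 in diestrus was -0.13 in 3-decimal mice and without mice 31 to 34, and -0.53 to 2.43 without 1 mouse, and Cxcl1 between FA phases was -0.11 with a Ct limit of 35. Except where the setting itself removes mice or wells, the cause was not tested. Between same-numbered mice of different groups the median r of deviations was 0.064 (43 of 98 pairs with r over 0.1), against -0.025 for mice of other numbers. Whether the numbers pair mice was not tested. With the replicate number as a block the counts were 3, 2 and 2 for follicular, luteal and phase among O3 mice, and no member count changed.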
